A study of Mus musculus with 12 samples.

Results

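Glucose uptake and glycolysis in the mouse aorta are described here through 10 genes, Slc2a1, Hk1, Hk2, Hk3, Pfkp, Pfkfb3, Pgk1, Pkm, Ldha and Pgm1, out of the 22183 genes in the deposited table. They were matched by gene symbol, and all 10 passed the filter on low counts. The genes were chosen with earlier results on the same 12 libraries known, so they are selected on these counts, and their levels and differences are a description with no test. Aorta, cut between its ascending part and the iliac branching, was sequenced from male mice that lack apolipoprotein E (ApoE-/-), a genotype shared by all groups that raises blood cholesterol and leads to atherosclerotic plaques. The mice were 8 weeks old at the start. The normal fat diet group (NFD) ate food with 5% fat and no cholesterol and was given saline. The high-fat diet group (HFD) ate food with 16% fat and 0.25% cholesterol and was given saline. The HFD+TUDCA group ate the same high-fat food and, after 8 weeks of it, was given 1000 mg/kg of tauroursodeoxycholic acid (TUDCA, a taurine-conjugated bile acid) by mouth every day for 4 weeks, the time over which the others received saline. Each group has 4 libraries. No label says that each library is a separate animal, so p-values measure only the spread between these samples, which may be technical.

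Glycolysis is the chain of cytosolic reactions that splits glucose into pyruvate and yields ATP. Transporters of the GLUT family let glucose enter, hexokinases trap it as glucose 6-phosphate, phosphofructokinase commits it to the pathway, and lactate dehydrogenase turns pyruvate into lactate when it is not burnt in mitochondria. Smooth muscle, endothelium and activated leukocytes all use the pathway heavily, and many of its genes are targets of the hypoxia-inducible factors, which bind DNA at the letters ACGTG or GCGTG.

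Total counts ranged from 15199317 to 22061692 per library. Levels are given as CPM, the count relative to the library's TMM-scaled total. The error of a level is the SD among the 4 libraries of a group, and that of a log2 fold change is the SE. Apoe itself still had between 184 and 641 counts per library in all 12, and gene-level counts cannot check a deletion of some of its exons. All 6 smooth muscle markers and all 5 endothelial markers had counts in every library. So did all markers of macrophages, skeletal muscle, white and brown fat and erythroid cells, so the presence of counts cannot check the label aorta. The libraries farthest from the centre of a principal component analysis were 2 of HFD (replicates 1 and 4) and 1 of HFD+TUDCA (replicate 4). The whole aorta was taken, and in such bulk samples fewer cells of a type and less RNA per cell cannot be told apart.

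The differences among the 10 genes were led by Hk3, a hexokinase of myeloid blood cells, which stood 4.67-fold higher in HFD than in NFD and 2.35-fold lower in HFD+TUDCA than in HFD. Of the other 9 genes, 7 had a lower mean in HFD than in NFD, with log2 fold changes from -0.63 for Ldha to 0.48 for Slc2a1, and 8 had a higher mean in HFD+TUDCA than in HFD, from -0.39 for Slc2a1 to 0.88 for Pgm1. For HFD+TUDCA against NFD the log2 fold changes of these 9 genes lay between -0.26 for Ldha and 0.43 for Pgm1. The 3 comparisons share libraries, so their fold changes are not independent.

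**Figure D1:**
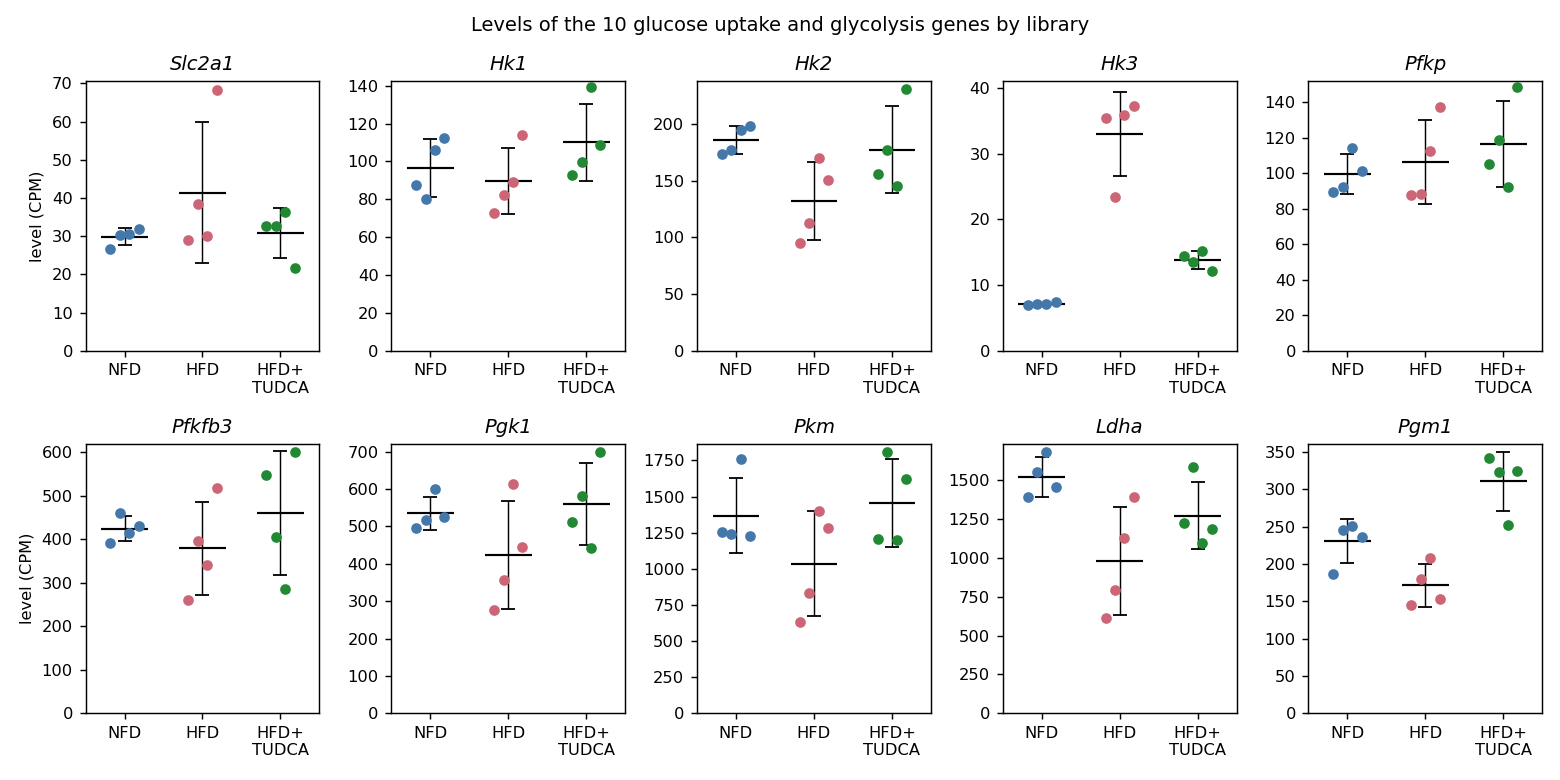
Level in CPM (y axis, from 0) of each of the 10 genes in each library (points, replicates 1 to 4 from left to right within a group), with the mean (line) and SD (bars) of the 4 libraries. The 4 HFD libraries of Hk3 lie between 23.4 and 37.2 CPM, apart from NFD and HFD+TUDCA, and the HFD points of Slc2a1, Pgk1, Pkm and Ldha are more spread than their NFD points.

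Promoter letters are shown for 3 of the genes, Hk3 because it differed most between the groups, and Ldha and Pgk1 as examples of abundant enzymes with more than 1 match. Repeated matches in 1 window are shared by most of the 10 genes, and so is a low level in HFD replicate 1. Each stretch holds the 160 bases before the RefSeq start on build GRCm38.p6, 5′ to 3′ on the strand of the gene, and capitals mark the letters ACGTG on either strand (CACGT where it is read from the other strand). Hk3 lies at chr13:55021386-55021545 (minus strand), Ldha at chr7:46845644-46845803 (plus strand) and Pgk1 at chrX:106186940-106187099 (plus strand).
Hk3: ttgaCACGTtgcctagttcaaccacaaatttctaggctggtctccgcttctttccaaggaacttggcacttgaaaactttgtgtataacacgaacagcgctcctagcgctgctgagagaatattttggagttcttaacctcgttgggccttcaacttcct
Ldha: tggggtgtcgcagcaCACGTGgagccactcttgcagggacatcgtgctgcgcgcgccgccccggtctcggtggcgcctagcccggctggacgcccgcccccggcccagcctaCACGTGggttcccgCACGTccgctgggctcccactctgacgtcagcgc
Pgk1: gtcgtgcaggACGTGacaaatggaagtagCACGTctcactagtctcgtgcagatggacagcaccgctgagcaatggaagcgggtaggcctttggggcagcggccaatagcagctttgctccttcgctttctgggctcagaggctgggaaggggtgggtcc

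All 10 genes had at least 1 RefSeq promoter window of 300 bases (250 before the start and 50 after it), and 4 of them had a second window. ACGTG was found in 10 of the 14 windows, covering 9 of the 10 genes, against 19.6% of all 32851 windows in the RefSeq table. The gene without it, Pfkp, had GCGTG instead, which was present in 6 of the 14 windows and in 32.4% of all windows. The palindrome CACGTG, an E box, was present in Ldha and Pfkfb3 and in 7.15% of all windows. The letters CACGTG contain ACGTG, so these counts overlap. In Ldha the E box began 145 and 48 bases before the start, and in Hk3 the single ACGTG lay 156 bases before it. A match of letters is a description of the sequence and not a measured binding site.

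Slc2a1 (ENSMUSG00000028645, chr4:119108711-119137983, plus strand) encodes GLUT1, the transporter for basal glucose uptake in most cells. Its level was 26.6, 30.3, 30.5 and 31.8 CPM in the NFD libraries 1 to 4, 28.9, 38.4, 30.0 and 68.3 in HFD and 32.7, 32.7, 36.4 and 21.5 CPM in HFD+TUDCA. HFD replicate 4 lay far above the rest of its group, HFD+TUDCA replicate 4 was the lowest of all 12, and the groups overlapped. The means were 29.8 ± 2.24 in NFD, 41.4 ± 18.4 in HFD and 30.8 ± 6.44 CPM in HFD+TUDCA. The log2 fold change of HFD against NFD was 0.48 ± 0.26, and it was 0.09 without HFD replicate 4. For HFD+TUDCA against HFD it was -0.39 ± 0.28, and -0.07 without that same library.

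By length-normalised level (the deposited FPKM), the insulin-responsive GLUT4 gene Slc2a4 was the major one of 3 transporters, and Slc2a1 came next in the mean of each group, above Slc2a3. Of the summed FPKM of Slc2a1, Slc2a3 and Slc2a4, Slc2a1 held 5.52% ± 0.29 in NFD (SD, n = 4), 13.7% ± 5.10 in HFD and 7.30% ± 0.71 in HFD+TUDCA. Its share in HFD was 13.0, 15.4, 7.07 and 19.2% in replicates 1 to 4, all above the 5.31 to 5.95% of NFD, and replicate 3 overlapped HFD+TUDCA. The sum of the 3 transporters was 195 ± 8.34 FPKM in NFD, 105 ± 22.6 FPKM in HFD and 143 ± 23.2 FPKM in HFD+TUDCA, so the larger share in HFD stood beside a smaller total.

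Hexokinases add the first phosphate to glucose. Hk1 (ENSMUSG00000037012, chr10:62268855-62379908, minus strand), the housekeeping form bound to mitochondria, was at 87.3, 80.3, 106 and 112 CPM in NFD, 72.8, 82.5, 89.2 and 114 in HFD and 93.0, 99.5, 139 and 108 CPM in HFD+TUDCA. The 3 groups overlapped, and the log2 fold changes were -0.10 ± 0.16 for HFD against NFD and 0.33 ± 0.18 for HFD+TUDCA against HFD. Hk2 (ENSMUSG00000000628, chr6:82725025-82774454, minus strand), the inducible form of muscle and fat, was at 174, 177, 195 and 198 CPM in NFD, 94.9, 113, 170 and 151 in HFD and 156, 177, 146 and 231 CPM in HFD+TUDCA. Every HFD library lay below every NFD library, by a small margin for replicate 3, and HFD+TUDCA overlapped both. Hk2 had a log2 fold change of -0.49 ± 0.18 in HFD against NFD and of 0.46 ± 0.23 in HFD+TUDCA against HFD.

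Hk3 (ENSMUSG00000025877, chr13:55005985-55021385, minus strand) was at 6.93, 7.08, 7.03 and 7.36 CPM in the NFD libraries, 35.5, 23.4, 35.8 and 37.2 in HFD and 14.5, 13.5, 15.2 and 12.1 CPM in HFD+TUDCA. No 2 groups overlapped, and the HFD+TUDCA libraries lay between the other groups. The means were 7.10 ± 0.18, 33.0 ± 6.44 and 13.8 ± 1.34 CPM, with counts of 131 to 622 behind each value. The log2 fold changes were 2.22 ± 0.18 for HFD against NFD, -1.23 ± 0.19 for HFD+TUDCA against HFD and 0.96 ± 0.15 for HFD+TUDCA against NFD. Over 18 alternative settings the first of these ranged from 1.75 to 2.36, the second from -1.37 to -1.05 and the third from 0.69 to 1.00. Hk3 overlaps Unc5a on the opposite strand, and the counting is not stated to use strand.

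Among Hk1, Hk2 and Hk3 the make-up of the sum differed between the groups. Hk3 held 3.53% ± 0.37 of their summed FPKM in NFD, 17.4% ± 3.90 in HFD (23.1, 14.1, 15.9 and 16.6% by replicate) and 6.71% ± 1.01 in HFD+TUDCA. The share of Hk2 was 53.4% ± 2.74, 39.4% ± 3.89 and 48.0% ± 7.25 in the same order, and the share of Hk1 was 43.1% ± 3.09, 43.2% ± 3.21 and 45.3% ± 6.89. The sum of the 3 genes was 66.0 ± 6.44 FPKM in NFD, 59.7 ± 8.28 FPKM in HFD and 65.3 ± 7.29 FPKM in HFD+TUDCA, ranges that overlapped.

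**Figure D2:**
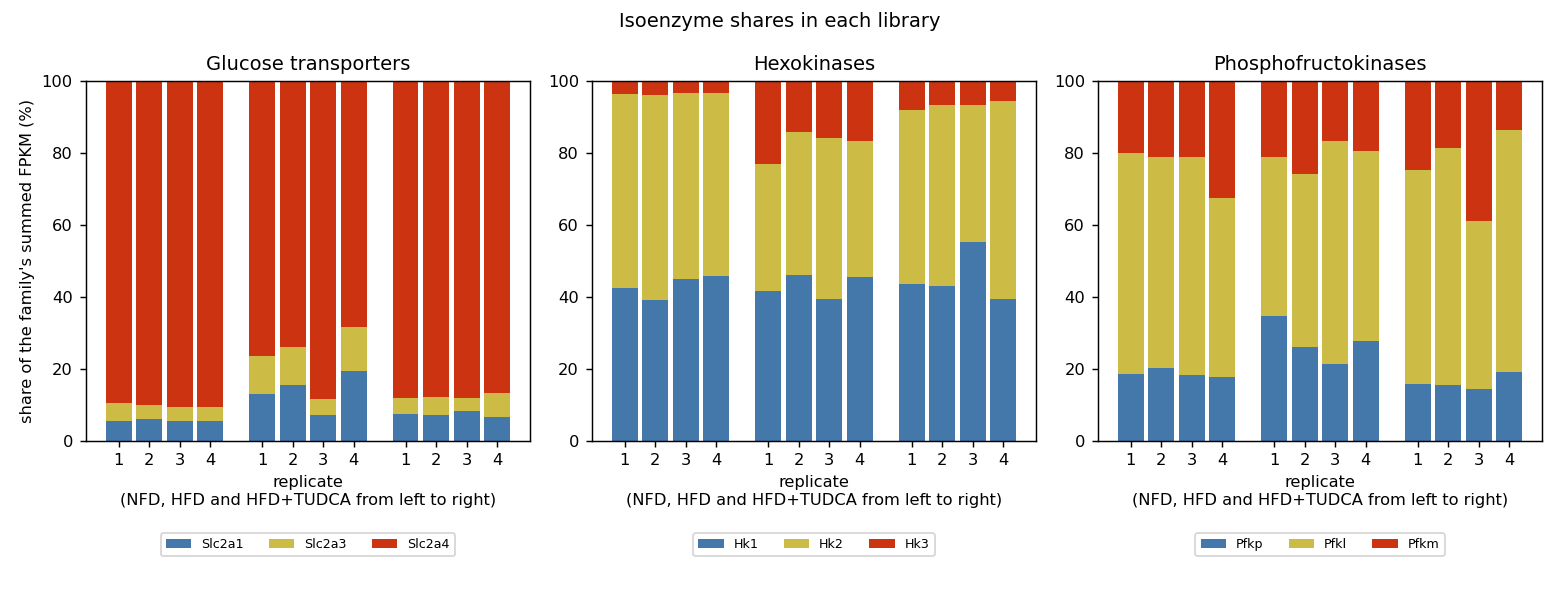
Share (%) of each isoenzyme in the summed FPKM of its family for every library, with NFD, HFD and HFD+TUDCA replicates 1 to 4 from left to right, for glucose transporters, hexokinases and phosphofructokinases. Hk3 takes 14.1 to 23.1% of the sum of Hk1, Hk2 and Hk3 in HFD against 3.21 to 3.94% in NFD, and Pfkp takes 21.3 to 34.6% of phosphofructokinase in HFD against 17.6 to 20.2% in NFD.

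Pfkp (ENSMUSG00000021196, chr13:6579768-6648777, minus strand), the platelet-type phosphofructokinase, catalyses the committing step. It was at 89.4, 92.4, 115 and 101.2 CPM in NFD, 87.6, 88.6, 113 and 137 in HFD and 105, 119, 92.5 and 149 CPM in HFD+TUDCA. The groups overlapped, and the log2 fold changes were 0.11 ± 0.16 for HFD against NFD (-0.07 without HFD replicate 4) and 0.16 ± 0.21 for HFD+TUDCA against HFD. Its counts were not whole numbers in any of the 12 libraries, unlike those of the other 9 genes, and it overlaps Pitrm1 on the opposite strand, so its level is uncertain where reads are shared.

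Among the 3 phosphofructokinase genes the share of Pfkp was 18.6% ± 1.14 in NFD, 27.4% ± 5.54 in HFD and 16.1% ± 2.08 in HFD+TUDCA. The HFD libraries lay above all the other 8 in that share. The liver type Pfkl was at 302 ± 38.4, 212 ± 100.6 and 420 ± 124 CPM in NFD, HFD and HFD+TUDCA, and the muscle type Pfkm at 121 ± 38.3, 77.0 ± 17.2 and 152 ± 57.0 CPM. Neither passed the edgeR test in HFD against NFD (adjusted p = 0.382 and 0.156) or in HFD+TUDCA against HFD (adjusted p = 0.353 and 0.268). The summed phosphofructokinase level was 184 ± 22.5 FPKM in NFD, 129.9 ± 32.8 FPKM in HFD and 223 ± 8.55 FPKM in HFD+TUDCA.

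Pfkfb3 (ENSMUSG00000026773, chr2:11471433-11554077, minus strand) makes fructose 2,6-bisphosphate, the strongest activator of phosphofructokinase, and is the form that endothelial cells depend on. It was at 392, 459.8, 414.5 and 430.5 CPM in NFD, 261, 397, 342 and 518 in HFD and 549, 404, 287 and 601 CPM in HFD+TUDCA. The spread within the high-fat groups covered the whole NFD range, and the log2 fold changes were -0.16 ± 0.20 and 0.32 ± 0.29 for HFD against NFD and HFD+TUDCA against HFD. Among the 4 Pfkfb genes it held 70.6% ± 1.17 of the FPKM in NFD, 79.4% ± 6.99 in HFD and 80.4% ± 4.41 in HFD+TUDCA. Pfkfb1, the liver and muscle form, held 23.6% ± 1.39, 13.1% ± 6.74 and 12.8% ± 2.87, and its lower level in HFD (log2 fold change -1.24 ± 0.30) was just outside the call (edgeR adjusted p = 0.0507).

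Pgk1 (ENSMUSG00000062070, chrX:106187100-106203699, plus strand), phosphoglycerate kinase, makes the first ATP of the pathway. Its level was 497, 518, 599.6 and 526 CPM in NFD, 277, 357, 615 and 444 in HFD and 513, 581, 443 and 700.1 CPM in HFD+TUDCA. HFD replicate 3 was above every NFD library and the other 3 HFD libraries were below them all. The log2 fold change was -0.34 ± 0.22 in HFD against NFD and 0.43 ± 0.27 in HFD+TUDCA against HFD. Copies of Pgk1 elsewhere in the genome could share reads, although its counts were whole in all libraries.

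Pkm (ENSMUSG00000032294, chr9:59656368-59679375, plus strand) encodes pyruvate kinase of muscle and most other tissues, and a count per gene covers its M1 and M2 isoforms together. It was at 1255, 1239, 1757 and 1224 CPM in NFD, 631, 836, 1403 and 1280 in HFD and 1208, 1807, 1197 and 1619 CPM in HFD+TUDCA. HFD replicates 1 and 2 were lower than every other library and NFD replicate 3 stood above the rest of NFD, with overlap between all groups. Pkm had log2 fold changes of -0.40 ± 0.26 in HFD against NFD and 0.52 ± 0.29 in HFD+TUDCA against HFD.

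Ldha (ENSMUSG00000063229, chr7:46841475-46855627, plus strand) encodes the lactate dehydrogenase subunit that favours lactate. It was at 1391, 1553, 1679 and 1452 CPM in NFD, 611, 796, 1126 and 1388 in HFD and 1220, 1585, 1095 and 1182 CPM in HFD+TUDCA. All HFD libraries were below all NFD libraries, with replicate 4 only just below, and HFD+TUDCA overlapped both groups. The log2 fold changes were -0.63 ± 0.24, 0.41 ± 0.27 and -0.26 ± 0.16 for HFD against NFD, HFD+TUDCA against HFD and HFD+TUDCA against NFD. Ldha held 75.8% ± 1.77 of the summed FPKM of Ldha and Ldhb in NFD, 72.7% ± 5.94 in HFD and 70.1% ± 3.58 in HFD+TUDCA, and the groups overlapped in that share. Their sum was 1317 ± 73.7 FPKM in NFD, 835 ± 254 FPKM in HFD and 1102 ± 126 FPKM in HFD+TUDCA.

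Pgm1 (ENSMUSG00000025791, chr4:99929414-99987294, plus strand), phosphoglucomutase, interconverts glucose 6-phosphate and glucose 1-phosphate and so links glycolysis to glycogen. It was at 187, 246, 252 and 237 CPM in NFD, 145, 180.5, 208 and 153 in HFD and 343, 324, 252 and 324 CPM in HFD+TUDCA. The HFD+TUDCA libraries lay above all 8 others, with replicate 3 only just above the highest NFD library, while 1 HFD library reached into the NFD range. The means were 230.4 ± 29.4, 172 ± 29.0 and 311 ± 40.1 CPM, and Pgm1 was the 1 gene of the 10 for which every HFD+TUDCA library lay above every other library. Its log2 fold changes were -0.42 ± 0.16 for HFD against NFD, 0.88 ± 0.18 for HFD+TUDCA against HFD and 0.43 ± 0.14 for HFD+TUDCA against NFD. The related Pgm2 had means of 15.8, 21.7 and 12.8 CPM in NFD, HFD and HFD+TUDCA (log2 fold changes 0.46 ± 0.22 and -0.73 ± 0.24 for HFD against NFD and HFD+TUDCA against HFD, edgeR adjusted p = 0.261 and 0.322). Pgm1 overlaps Itgb3bp on the opposite strand.

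**Figure D3:**
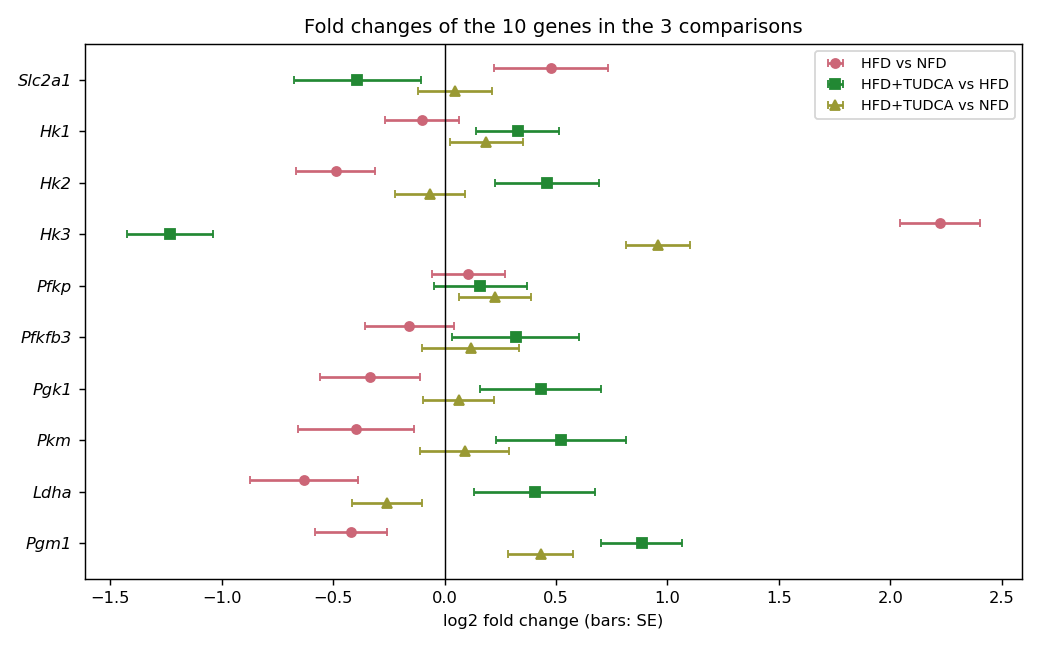
Log2 fold change (x axis, bars are SE) of each of the 10 genes in HFD against NFD, HFD+TUDCA against HFD and HFD+TUDCA against NFD. Hk3 lies far from the others, at 2.22, -1.23 and 0.96, and Pgm1 has the highest value of HFD+TUDCA against HFD at 0.88.

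By deposited FPKM, Ldha had the highest level of the 10 in NFD (998 ± 58.3), followed by Pkm (634 ± 103), Pgk1 (305 ± 16.8), Pgm1 (101.1 ± 10.7), Pfkfb3 (97.4 ± 6.85), Hk2 (35.1 ± 1.76), Pfkp (34.2 ± 2.88), Hk1 (28.6 ± 4.73), Slc2a1 (10.8 ± 0.71) and Hk3 (2.31 ± 0.08). Neighbours whose mean ± SD overlapped were Pgm1 and Pfkfb3, Hk2 and Pfkp, and Pfkp and Hk1. In HFD the order was Ldha (604 ± 181), Pkm (449 ± 133), Pgk1 (226 ± 62.4), Pfkfb3 (82.8 ± 20.3), Pgm1 (71.4 ± 9.69), Pfkp (34.5 ± 5.67), Hk1 (25.8 ± 4.09), Hk2 (23.6 ± 4.65), Slc2a1 (13.9 ± 5.30) and Hk3 (10.3 ± 2.00). There the gaps below Pkm, below Pgk1 and below Pgm1 exceeded the spread, and the other neighbours overlapped. In HFD+TUDCA Ldha (774 ± 120) and Pkm (638 ± 109) overlapped, Pgk1 was at 294 ± 37.0, Pgm1 at 126 ± 11.3 and Pfkfb3 at 97.3 ± 25.4, and Hk3 was again the lowest at 4.36 ± 0.58.

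Counted over the 10 genes, 1 (Hk3) was called higher in HFD than in NFD at an edgeR adjusted p under 0.05 and 0 were called lower, where 4.83% of the 14918 genes tested were called (3.18% higher and 1.64% lower). Hk3 was higher without overlap of the groups, as were 8.1% of all genes, and Hk2 and Ldha were lower without overlap, as were 6.89%. In HFD+TUDCA against HFD 0 of the 10 and 0% of all 14587 genes were called by edgeR, with 1745 genes at an unadjusted p under 0.05. DESeq2 called 356 genes in that comparison and 1 edgeR fit of all 12 libraries called 115, each with Hk3 lower and Pgm1 higher among them. Pgm1 was higher there without overlap (2.75% of all genes) and Hk3 was lower without overlap (4.78%). For HFD+TUDCA against NFD, Hk3 was called and higher (0.194% of 14942 genes were called), Hk3 and Pgm1 were higher without overlap (3.88% of all genes) and 0 of the 10 were lower without overlap (3.43%). The call of Hk3 against NFD held in all 18 alternatives for HFD and in 6 of 18 for HFD+TUDCA, where 2 of the 8 fits that left out 1 library kept it. Since the genes were selected on these contrasts, nothing about them is read from these counts. The median log2 fold change of the 10 was -0.25, 0.37 and 0.10 in the 3 comparisons, beside 0.0367, 0.00011 and 0.00518 over all genes tested.

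Libraries on the high-fat diet differed more among themselves than those on the normal diet. The coefficient of variation of the 10 genes ranged from 2.59 to 18.9% in NFD, from 16.9 to 44.5% in HFD and from 9.67 to 31.0% in HFD+TUDCA. It was larger in HFD than in NFD for all 10, as it was for 80.5% of all genes tested. HFD replicate 1 had the lowest level of its group in 9 of the 10 genes, Hk3 being the exception, while the same library was the lowest for 27.5% of all genes. The highest HFD level was in replicate 4 for 6 of the 10 genes and for 31.4% of all genes. It was in replicate 3 for 4 of the 10 and for 25% of all genes.

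The summed levels of marker genes of other cell types moved with these patterns in some libraries and not in others, and their part in the results was not tested. The 8 macrophage markers summed to 400 to 522 CPM in NFD, to 2060, 1340, 2690 and 1790 in HFD replicates 1 to 4 and to 689 to 1090 CPM in HFD+TUDCA, groups that are ordered as those of Hk3 are. HFD replicate 2, the lowest of its group for Hk3, was also the lowest of it for the macrophage sum. The single markers differed in this, with Adgre1 and Itgam lowest in HFD replicate 4 and Csf1r lowest in replicate 3. Csf1r also had a lower mean in HFD+TUDCA than in NFD (211 against 222 CPM). The 7 neutrophil markers summed to 31.1 to 41.3 CPM in NFD and to 40.3 to 102 CPM in HFD+TUDCA. In HFD replicates 1 to 4 they summed to 512, 630, 232 and 987 CPM, so replicate 3 and not replicate 2 was lowest. All of these markers had counts in every library.

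The summed level of the 4 brown adipocyte markers, most of it Ucp1, was low in HFD replicates 1 and 2, as were Pgk1, Pkm and Ldha. Of these markers Ppara differed, with its lowest HFD level in replicate 4. The sum was 2530 to 3880 CPM in NFD, 696, 1050, 2770 and 2490 in HFD replicates 1 to 4 and 4930, 4740, 2670 and 6310 CPM in HFD+TUDCA replicates 1 to 4. Within HFD, Pgk1 and this sum were both highest in replicate 3, and within HFD+TUDCA both were lowest in replicate 3. Within NFD they differed, as Pgk1 was highest in replicate 3 and the sum in replicate 4 (3880 CPM, against 2780 CPM in replicate 3). Heart muscle markers summed to 3010 to 8190 CPM in NFD, 315 to 2310 in HFD and 20.7 to 9530 CPM in HFD+TUDCA. Erythroid markers summed to 15000 CPM in HFD replicate 4, the library with the highest Slc2a1, and to 1340 to 5800 CPM in the others. The other groups went the other way. Their highest erythroid sums, 5070 CPM in NFD replicate 1 and 5610 CPM in HFD+TUDCA replicate 4, were in the libraries with the lowest Slc2a1 of each group (26.6 and 21.5 CPM). Skeletal muscle markers summed to 125 to 1540 CPM in NFD, 47.1 to 1000 in HFD and 17.1 to 1210 CPM in HFD+TUDCA. For white adipocyte markers the sums were 2410 to 3750, 2100 to 2640 and 2230 to 4930 CPM in the same order. For airway and stratified epithelium they were 828 to 1490, 2.45 to 789 and 0.76 to 941 CPM. The part of fat, heart and skeletal muscle, epithelium and blood in the levels of the 10 genes was not tested.

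**Figure D4:**
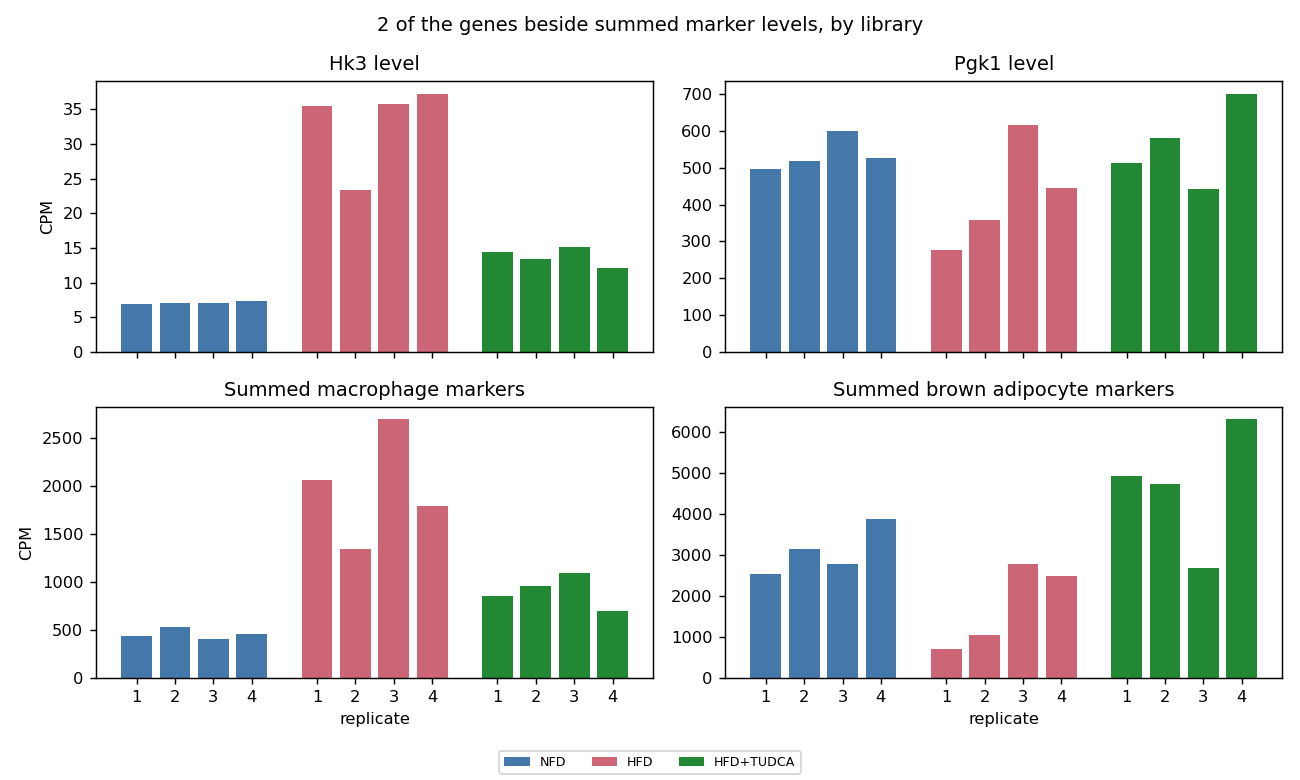
Levels (CPM, y axes from 0) of Hk3 above the summed macrophage markers and of Pgk1 above the summed brown adipocyte markers, for replicates 1 to 4 of NFD, HFD and HFD+TUDCA. Hk3 and the macrophage sum are both lowest in NFD and highest in HFD, and Pgk1 and the brown adipocyte sum are both lowest in HFD replicate 1.

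Patterns over the 12 libraries were compared by the root mean square difference between z scores of log2 CPM, among 13996 genes, where 0 is an identical pattern. Nearest to Hk3 were F10 (0.21), a coagulation factor, and Scpep1 (0.22), a serine carboxypeptidase. Hk2 was nearest to Bpnt1 (0.17), a nucleotide phosphatase, and Pgk1 to Mpc2 (0.20), a subunit of the mitochondrial pyruvate carrier, and both had Pdhx, a component of the pyruvate dehydrogenase complex, as their second nearest (0.24 and 0.20). Pkm was nearest to G6pdx (0.31), the entry enzyme of the pentose phosphate pathway, and to Pfkl (0.34), and Ldha to Pgd (0.32) of the same pathway and to the enolase gene Eno1 (0.35). Pgm1 was nearest to Entpd5 (0.17) and to the lipid droplet gene Plin1 (0.28), and Slc2a1 to Snrnp70 (0.18) and Daxx (0.22). Between the 10 genes the closest pair was Hk2 and Pgk1 (0.31) and the farthest was Hk3 and Ldha (1.74). The nearest genes to Hk1 (Ogdhl, 0.48), Pfkp (Psmd11, 0.43) and Pfkfb3 (Rtl8c, 0.39) were more distant.

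The rest of the pathway was followed in 9 lists of 111 further genes, of which 1 matched no symbol in the table. For HFD against NFD 98 of them could be tested. The adjusted p-values given for them are those of edgeR over all genes. The lists too were chosen with earlier results of these data known, so the calls of their genes are a description. In HFD against NFD 5 rose, 5 fell and 88 did not pass, where 3.18% of all 14918 genes tested were called higher and 1.64% lower. The genes that rose were the lactate exporter Slc16a3, glycogenin Gyg, the hypoxia-inducible factor Hif1a, the vasodilator peptide gene Adm and the transcription repressor Bhlhe40. The genes that fell included the transporter Slc2a4, the pyruvate carboxylase gene Pcx and the liver glycogen synthase gene Gys2. The count rested on single libraries, at 0, 2, 1 and 4 when NFD replicate 1, 2, 3 or 4 was left out, and at 6 or 20 when HFD replicate 2 or 3 was, and it was 1 without the 2 HFD libraries that lay farthest out. The macrophage, neutrophil and brown adipocyte sums given above differ between the same groups, and their part in these calls was not tested.

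Of the 11 other glucose transporters 8 were tested, and 1 fell. Slc2a4, the most abundant of Slc2a1, Slc2a3 and Slc2a4 in every library, was at 350, 375, 404 and 419 CPM in NFD, 141, 147, 294 and 186 in HFD and 308, 309, 321 and 252 CPM in HFD+TUDCA. Every HFD library lay below every NFD library, and HFD replicate 3 reached into the HFD+TUDCA range. It fell 2.01-fold in HFD (log2 fold change -1.01 ± 0.23, edgeR adjusted p = 0.0373), a call that 1 of the 8 fits without 1 library kept. Its log2 fold change with TUDCA against HFD was 0.65 ± 0.25 (adjusted p = 0.363). Slc2a3, which encodes the high-affinity GLUT3, was at 26.9 ± 2.51, 35.4 ± 14.5 and 27.7 ± 4.90 CPM in NFD, HFD and HFD+TUDCA, with HFD replicate 4 the highest (adjusted p = 0.418 in HFD against NFD). For Slc2a6, a transporter of leukocytes, the estimates were log2 fold changes of 1.48 ± 0.40 in HFD against NFD (edgeR adjusted p = 0.0652) and of -0.998 ± 0.38 in HFD+TUDCA against HFD (adjusted p = 0.363).

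Among 16 tested glycolytic enzymes outside the 10 genes, 13 had a negative fold change in HFD against NFD (median log2 -0.43) and 13 a positive one in HFD+TUDCA against HFD (median 0.49), also with RLE and upper-quartile scaling. Over all genes 6875 of 14918 were negative in the first comparison and 7295 of 14587 positive in the second. Both comparisons use the same HFD libraries, so the 2 counts of signs are not independent. The 16 include the muscle forms Pgam2 and Eno3, at 1.37 and 9.98 CPM in HFD+TUDCA replicate 4. In that library the heart and skeletal muscle markers summed to 20.7 and 17.1 CPM, the lowest of its group. The part of muscle in these signs was not tested. Of the 16 enzymes 1, not reported by name, was called lower in HFD than in NFD and 0 were called higher. The enolase gene Eno1 was at 1946 ± 509 CPM in NFD, 906 ± 394 in HFD and 1546 ± 459 CPM in HFD+TUDCA (log2 fold change -1.10 ± 0.33 in HFD against NFD, adjusted p = 0.0901). Counts of Eno1 were not whole in 10 libraries and those of Gapdh in 12, which leaves the levels of both uncertain. For the aldolase gene Aldoa the log2 fold change in HFD against NFD was -0.72 ± 0.24 (adjusted p = 0.119), for Gapdh -0.52 ± 0.26 (adjusted p = 0.305), for the isomerase genes Gpi1 and Tpi1 -0.26 ± 0.17 and -0.21 ± 0.19 (adjusted p = 0.445 and 0.594), for Pgam1 -0.14 ± 0.26 (adjusted p = 0.813) and for Ldhb -0.35 ± 0.30 (adjusted p = 0.565). Gapdh, often used as a reference gene, was at 998, 1466, 2077 and 2391 CPM in HFD replicates 1 to 4, in the same order of libraries as Ldha.

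For the fate of lactate and pyruvate, 16 genes were tested in HFD against NFD, of which 1 rose and 1 fell. Slc16a3, the lactate exporter MCT4 of glycolytic cells, was at 6.50, 7.94, 5.17 and 10.2 CPM in NFD, 15.4, 21.7, 15.5 and 29.5 in HFD and 9.14, 6.76, 12.7 and 9.62 CPM in HFD+TUDCA. The HFD libraries lay above all others. Counts of Slc16a3 were not whole in 4 libraries. Slc16a3 rose 2.76-fold in HFD (log2 fold change 1.46 ± 0.28, edgeR adjusted p = 0.0203, kept in 5 of 8 fits without 1 library) and had a log2 fold change of -1.07 ± 0.27 in HFD+TUDCA against HFD (adjusted p = 0.26). Pcx, which feeds pyruvate into oxaloacetate and is abundant in fat and liver, fell 2.30-fold from 1213 ± 251 to 526 ± 109 CPM (log2 fold change -1.20 ± 0.21, adjusted p = 0.0152, kept in 6 of 8), and was at 697 ± 208 CPM in HFD+TUDCA. Slc16a1, the more widely used lactate transporter MCT1, missed the threshold (adjusted p = 0.766 at a log2 fold change of -0.17 ± 0.26), as did the pyruvate dehydrogenase kinase gene Pdk4 (adjusted p = 0.112 at 0.76 ± 0.24).

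Glycogen genes were represented by 16 tested genes, Gyg and Gys2 among those called in HFD against NFD. Gyg, which primes glycogen, was at 91.9 to 119 CPM in NFD, 158 to 188 in HFD and 159.6 to 198.5 CPM in HFD+TUDCA, so both high-fat groups lay above NFD without overlap. It rose 1.66-fold in HFD (log2 fold change 0.73 ± 0.13, edgeR adjusted p = 0.0175, kept in 5 of 8 fits without 1 library), and in HFD+TUDCA against NFD the log2 fold change was 0.73 ± 0.12 (adjusted p = 0.0727). Gys2 fell 2.53-fold from 44.4 ± 6.09 to 17.6 ± 9.23 CPM (adjusted p = 0.0374, kept in 1 of 8) and was at 40.4 ± 15.7 CPM in HFD+TUDCA. None of the 8 pentose phosphate genes passed, Pgd being nearest (log2 fold change -0.95 ± 0.23, adjusted p = 0.0503), and none of the 4 tested genes of gluconeogenesis, where Fbp2 was nearest (1.56 ± 0.44, adjusted p = 0.0794).

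Hif1a, the oxygen-sensitive subunit of the hypoxia-inducible factor, was 1 of 15 tested regulators and the 1 of them that passed. It was at 51.8, 47.9, 57.5 and 35.5 CPM in NFD, 126, 76.4, 77.4 and 80.1 in HFD and 30.6, 51.4, 47.9 and 81.6 CPM in HFD+TUDCA. The HFD libraries lay above NFD, with replicate 1 highest, and HFD+TUDCA overlapped both. Hif1a rose 1.89-fold in HFD (log2 fold change 0.92 ± 0.22, edgeR adjusted p = 0.0472), a call kept in 2 of 8 fits without 1 library, and it overlaps annotated genes on both strands. Txnip, the glucose-responsive inhibitor of uptake, missed the threshold (adjusted p = 0.957 at a log2 fold change of -0.04 ± 0.29).

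All 11 tested genes of the list of other hypoxia-inducible genes had a positive fold change in HFD against NFD (median log2 0.37), 9 of 11 with upper-quartile scaling. All 11 had a negative one in HFD+TUDCA against HFD (median -0.48). Over all genes 8043 of 14918 were positive in the first comparison and 7292 of 14587 negative in the second. The list holds no glycolytic enzyme or glucose transporter, although many glycolytic genes are also targets of the hypoxia-inducible factors. Those went the other way in HFD against NFD, with negative fold changes for 7 of the 10 genes and 13 of the 16 other glycolytic enzymes. The 11 genes therefore do not stand for all targets of these factors. Of the 11, 2 rose in HFD, Adm from a mean of 8.92 ± 1.04 to 17.3 ± 3.60 CPM (edgeR adjusted p = 0.0229 at a log2 fold change of 0.96 ± 0.19, kept in 4 of 8 fits without 1 library) and Bhlhe40 from 62.7 ± 13.9 to 134 ± 23.9 CPM (1.10 ± 0.20, adjusted p = 0.0164, kept in 7 of 8). Adm was at 8.72 ± 1.28 CPM in HFD+TUDCA, and its log2 fold change against HFD was -0.96 ± 0.20 (adjusted p = 0.185).

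**Figure D5:**
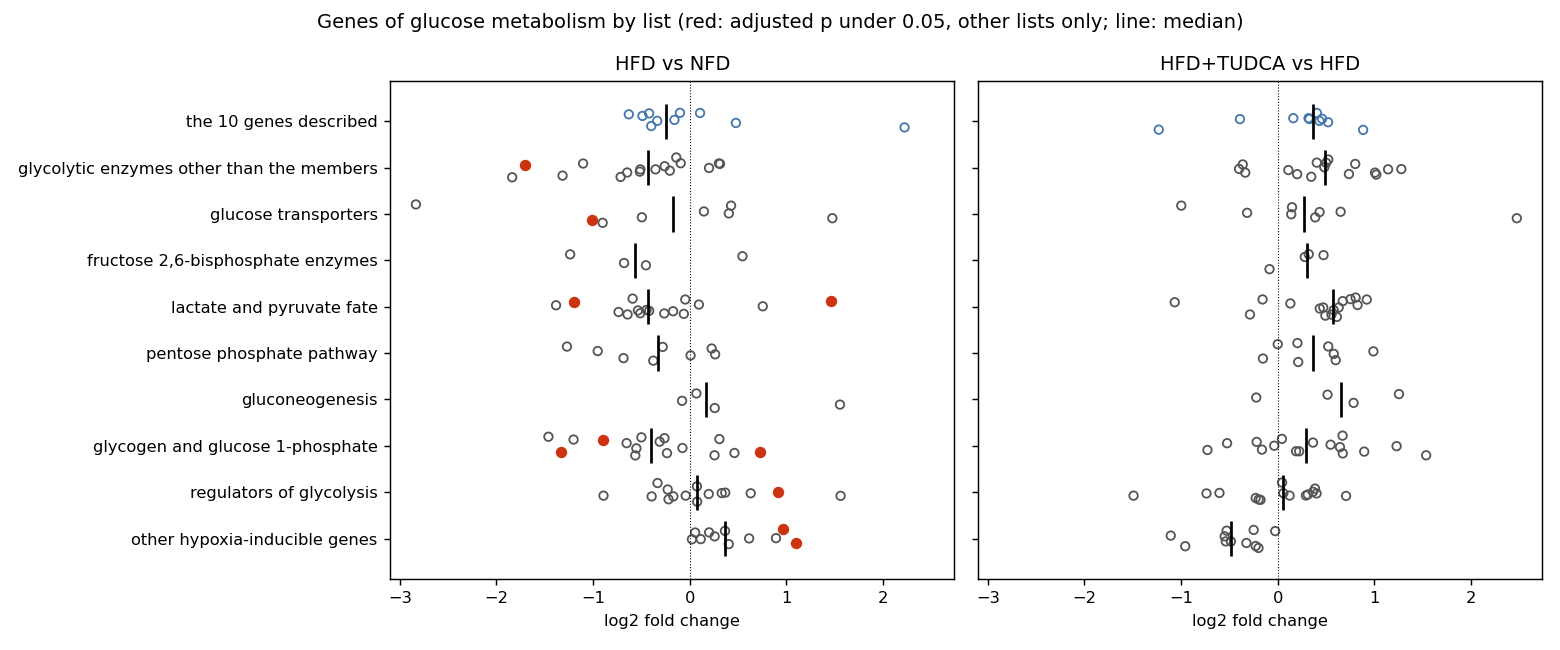
Log2 fold change (x axis) of every tested gene of glucose metabolism, by list, in HFD against NFD and in HFD+TUDCA against HFD, with the median of a list as a line and genes of the other lists with an edgeR adjusted p under 0.05 filled in red. The medians of the glycolytic enzymes are -0.43 and 0.49, and those of the other hypoxia-inducible genes 0.37 and -0.48.

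In HFD+TUDCA against HFD 0 of the 98 tested genes of these lists passed in edgeR. Of the 98, 25 had an unadjusted edgeR p under 0.05 and 64 a positive fold change, beside 1745 and 7295 of all 14587 genes. DESeq2 called 3 of the list genes (356 of all genes) and 1 fit of all 12 libraries called 1 (115 of all genes). The smallest adjusted p of the lists in this comparison was that of Adm, and for Gys1, the muscle glycogen synthase, it was 0.234 at a log2 fold change of 0.90 ± 0.21. Counts of Gys1 were not whole in 12 libraries. Against NFD, HFD+TUDCA had 1 call among 100 tested genes of the lists, and 29 among all 14942 genes. Fbp2, the muscle form of fructose bisphosphatase, a gluconeogenic enzyme, was at 0.85 to 2.16 CPM in NFD, 1.72 to 6.89 in HFD and 5.30 to 15.2 CPM in HFD+TUDCA, and rose 6.85-fold against NFD (log2 fold change 2.78 ± 0.40, edgeR adjusted p = 0.033), a call kept in 2 of 8 fits without 1 library.

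The deposited annotation gives its own pathway for Glycolysis and Gluconeogenesis, with 69 genes, of which 55 were tested in HFD against NFD. It includes some of the 10 genes and of the lists above. Of these 2 were called higher and 2 lower, with 16 positive and 39 negative fold changes (median log2 -0.34). Over all 14918 genes 475 were called higher and 245 lower, with 8043 positive and 6875 negative fold changes. Of 53 tested in HFD+TUDCA against HFD 0 were called and 41 were positive (median 0.41), beside 0 and 7295 of all 14587 genes.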

How the data were processed

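Whole-aorta poly(A) RNA was sequenced from 12 libraries in 3 groups of 4. The deposited table holds expected counts per gene (8.53 to 9.43% of a library's values are not whole) and FPKM, both made by the authors, per the file headers. FPKM are counts scaled by gene length and depth, and their total depends on a library's few most abundant genes. The build is GRCm38, per the submitters' processing notes, and the authors tested with DESeq2, per the labels' protocols. For the aligner, counter and annotation, names are not given in the sources.

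Counts were rounded to whole numbers, filtered with filterByExpr (minimum count 10, minimum total 15), scaled by TMM and tested with edgeR 4.0.16 by its quasi-likelihood test in R 4.3.3, each comparison on its 8 libraries, with Benjamini-Hochberg adjustment over all genes tested and a threshold of 0.05. Dividing a log2 fold change by the root of its F statistic gave its SE. Levels are CPM with TMM factors of all 12 libraries. The steps were tested on simulated counts. The 10 genes, the 9 lists and the rule for named genes were chosen with earlier results of these data known. Genes named were the 10, every called gene of a list, the gene of smallest p of a list with none called, a panel of 17 genes, and the 2 genes of most similar pattern to each of the 10. Alternatives were RLE and upper-quartile scaling, no filter, a fold of at least 2, a block for the replicate number, 1 joint fit of the 12 libraries, DESeq2 1.42.0, limma 3.58.1 (voom, and trend on log2(FPKM + 1) and log2(FPKM + 0.1)), and leaving out each library. Leaving out HFD replicates 1 and 4 and HFD+TUDCA replicate 4 together was added after seeing the data. Gene coordinates are from GENCODE on GRCm38 and promoters from RefSeq on GRCm38.p6. Protein sequences were not analysed here, and some called genes of the lists are counted but not reported by name.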

Additional observations from a re-analysis of the deposited data

Results flagged for a closer look

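In 5 of 132 groups of 4 libraries tested, over 44 genes, 1 library lay farther from the other 3 than Dixon's critical value allows, and chance gives about 1 in 20 such groups. For the 10 genes this was 2 of 30 groups. Hk3 was at 23.39 CPM in HFD replicate 2, below the 35.49 to 37.22 CPM of the other HFD libraries. Pkm was at 1757 CPM in NFD replicate 3, above the 1224 to 1255 CPM of the other NFD libraries. Hif1a was at 126.1 CPM in HFD replicate 1, above 76.39 to 80.06 CPM in the others. Gys1 was at 133 CPM in NFD replicate 1, below 172.2 to 177.7 CPM in the others. Myc, a transcription factor that drives glycolytic genes, was at 70.25 CPM in HFD replicate 4, above 16.12 to 17.71 CPM in the others.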

How the results depend on the processing

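The number of libraries and their spread limit these results, and where a count moved the cause was not tested. In HFD against NFD, edgeR called 720 genes and DESeq2 1715, and 374 were called without the libraries that lay farthest out, with 178 to 1181 when 1 library was left out. Of the other pathway genes 10 were called in that comparison, 6 with a fold of at least 2, 31 by DESeq2, 19 by limma-trend with either pseudocount, 1 without the libraries farthest out, and 0 to 20 when 1 library was left out. For HFD+TUDCA against HFD, where edgeR called 0, 1 fit of all 12 libraries called 115 genes, 2 of the 10 and 1 of the other pathway genes, and DESeq2 called 356, 2 and 3. For HFD+TUDCA against NFD, edgeR called 29 genes, DESeq2 546, limma-trend 50 (pseudocount 1) and 44 (0.1), with 682 without the libraries farthest out and 4 to 682 when 1 library was left out. The call of Hk3 there, 1 of the 10, went to 0 with a fold of at least 2, upper-quartile scaling, no filter, limma-voom and limma-trend, and to 0 or 1 when 1 library was left out. Of the other pathway genes 1 was called there, 2 by the fit of 12 libraries, 6 by DESeq2, 2 by limma-trend, 0 by limma-voom, 3 without the libraries farthest out, and 0 to 3 when 1 library was left out.

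With the replicate number as a block, the count of other pathway genes called in HFD against NFD was 21, and in HFD+TUDCA against NFD 8 genes, 0 of the 10 and 0 of the other pathway genes were called. Same-numbered libraries had correlations of their deviations of 0.0917 to 0.402 in HFD against NFD, where 3 of 4 correlated best with their own number, of -0.473 to -0.228 in HFD+TUDCA against HFD and of -0.346 to -0.0856 in HFD+TUDCA against NFD. Pairing was taken only where every correlation exceeded 0.1 or the labels gave it, which no comparison met, so the numbers were treated as names. In HFD against NFD, 3 of the 4 correlations were over 0.1, a hint of pairing from the data and not from the design.

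Log2 fold changes of genes that were not called changed sign under some settings. In HFD against NFD, without the libraries farthest out Pgam1 was at 0.004, Slc16a1 at 0.031 and Txnip at 0.206, and when 1 library was left out they ranged from -0.394 to 0.033, -0.431 to 0.03 and -0.222 to 0.146. In HFD+TUDCA against HFD, Pdk4 was at -0.478 and Txnip at -0.426 without the libraries farthest out, with ranges of -0.165 to 0.741 and -0.193 to 0.191. In HFD+TUDCA against NFD, limma-trend (pseudocounts 1 and 0.1) gave -0.212 and -0.238 for Slc2a3, -0.011 and -0.012 for Gpi1 and -0.026 and -0.032 for Hif1a. Without the libraries farthest out Slc2a3 was at -0.057 and Hif1a at -0.172. When 1 library was left out, Slc2a3 ranged from -0.057 to 0.147, Gpi1 from -0.028 to 0.156, Aldoa from -0.08 to 0.132, Gapdh from -0.167 to 0.045, Hif1a from -0.172 to 0.327 and Txnip from -0.203 to 0.083.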
